A study of Mus musculus with 12 samples.

Results

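The proteasome subunit genes were followed in whole mouse kidney after cisplatin, dichloroacetate or both. The members were every protein-coding gene of the count table whose mouse symbol is Psma, Psmb, Psmc, Psmd or Psme followed by a number, and 43 of the 28991 genes in the table met that rule. They comprised 15 genes of the constitutive 20S core, 3 immunoproteasome catalytic genes, the thymoproteasome gene Psmb11, 17 genes of the 19S regulatory particle, 3 chaperones that assemble it, 3 genes of the 11S activator and Psme4, which encodes the PA200 activator. The rule used symbols and no measured value. It left out 4 similarly named genes, namely Psmc3ip, Psme2b and the pseudogenes Psmb5-ps and Psmb7-ps2.

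The proteasome is the protease that degrades proteins tagged with ubiquitin in the cytosol and nucleus. Its 20S core is a barrel of alpha rings that gate the entry and beta rings that carry the catalytic sites. The 19S particle sits on the end of the barrel, where it binds and deubiquitinates the substrate and unfolds it with a ring of ATPases. Interferon-inducible catalytic subunits can replace the constitutive ones to form the immunoproteasome, which serves antigen presentation on class I molecules. The 11S and PA200 activators can open the core in place of the 19S particle. When proteasome capacity falls short, the transcription factor NRF1, encoded by Nfe2l1, can induce subunit genes together, and its relative NRF2, encoded by Nfe2l2, responds to oxidative stress through the same antioxidant response element.

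The series title gives its subject as protection from cisplatin nephrotoxicity by dichloroacetate. Cisplatin is a platinum anticancer drug that injures the proximal tubule, and dichloroacetate (DCA) inhibits pyruvate dehydrogenase kinases. All animals were male BALB/c mice of 8 weeks, and each of the 4 groups had 3 kidney libraries. Saline mice had an intraperitoneal injection of saline each day for 6 days, and DCA mice had 250 mg/kg of DCA on the same schedule. Cisplatin mice had saline for 5 days and then a single dose of 20 mg/kg cisplatin, and were killed 24 h later. Combination mice had DCA at 250 mg/kg for 5 days, then cisplatin at 20 mg/kg together with DCA, and were also killed 24 h later.

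Library totals ran from 29505929 to 62237514 counts, and the 6 libraries with cisplatin were shallower than the 6 without it. No library was left out. Scaling factors by the trimmed mean of M values (TMM) lay at 1.11 to 1.15 in the cisplatin group and 1.02 to 1.05 in the combination, against 0.91 to 0.96 in saline and 0.89 to 0.92 with DCA. The summed level of 10 proximal tubule markers was 31735 to 36232 counts per 1000000 (CPM) in saline, 35960 to 37780 with DCA, 9758 to 12311 with cisplatin and 14885 to 17993 with the combination. All 10 were detected, and Slc34a1 and Lrp2 were among them, so the tissue carried its defining kidney markers. The summed level of 5 injury genes, among them Havcr1 and Lcn2, was 40.7 to 44.2 CPM in saline and 46.7 to 65.0 with DCA. It was 626 to 727 CPM with cisplatin and 299 to 353 with the combination. The part of these shifts in the proteasome results was not tested, and in whole tissue fewer cells of a type cannot be told apart from less RNA per cell. Levels below are CPM over the TMM-scaled library total, and fold changes are log2 values with their standard error (SE) from edgeR's quasi-likelihood fit over 20370 genes in all 12 libraries. A gene is said to have risen or fallen where its Benjamini-Hochberg adjusted p from that fit was below 0.05.

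RefSeq promoter windows on build GRCm38.p6, each covering 250 bases before to 50 bases after the start, were available for 36 of the 43 members. The stretches printed here hold the core of the antioxidant response element, TGACNNNGC on either strand, and are shown because NRF1 and NRF2 bind that element. The first 4 belong to members that rose with cisplatin, and the last belongs to Psmd9, the member that fell. Each is written 5′ to 3′ on the gene's strand with the match in capitals, and all lie before the RefSeq start.
Psmb5: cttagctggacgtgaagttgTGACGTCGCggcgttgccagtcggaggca
Psmb6: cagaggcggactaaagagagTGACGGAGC
Psmc6: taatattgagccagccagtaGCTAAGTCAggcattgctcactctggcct
Psmd12: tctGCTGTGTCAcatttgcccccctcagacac
Psmd9: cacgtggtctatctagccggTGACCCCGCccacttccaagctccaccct

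The Psmb5 stretch lies at chr14:54618014-54618062 on the minus strand, and its match begins 47 bases before the start. The Psmb6 match, in chr11:70525328-70525356 on the plus strand, begins 9 bases before the start. The Psmc6 stretch is chr14:45329577-45329625 and the Psmd12 stretch is chr11:107479278-107479309, both on the plus strand. The Psmd9 stretch, chr5:123228139-123228187 on the plus strand, precedes the RefSeq start but falls in an intron of the longer GENCODE M21 gene. With Psme4 as the sixth, 6 of the 36 members with a window held this core (16.67%), against 13.99% of 27025 genes with a window. The CCAAT box, written CCAAT and searched on both strands, was in 14 member windows (38.89%) and in 41.06% of all genes. The interferon-gamma-activated site, searched as TTCNNNGAA, was in 2 member windows (5.56%) against 9.55% of genes. One of these was Psmb8, with its match 97 bases before the RefSeq start. The interferon regulatory factor core, searched as GAAANNGAA, was in 6 member windows (16.67%) against 9.76% of genes, but with only the bases before the start in 8.33% of members against 8.18% of genes. A match describes the letters only. The antioxidant core was about as frequent in the members as in all genes, and it was present both in members that rose and in the one that fell.

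Levels of different genes can be compared per kilobase of exon. In saline kidneys the 14 constitutive 20S genes other than Psma8 had a median of 39.5 CPM per kb of the union of their exons, from 23.6 for Psma2 to 122 for Psmb5. The 17 genes of the 19S particle had a median level of 28.4 CPM per kb, from 10.6 for Psmd11 to 59.7 for Psmc5. The immunoproteasome genes were far lower, at 4.87 CPM per kb for Psmb10, 1.65 for Psmb8 and 0.857 for Psmb9. Psma8, an alpha subunit known from the testis, had 2 to 18 counts per library and was not tested. Psmb11, the catalytic subunit of thymic cortical epithelium, had 8 to 17 counts per library. The order among the abundant subunits depends on the length used, since with the annotated principal transcript the 20S median was 91.4 CPM per kb and the highest gene was Psma4 at 166.

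**Figure D1:**
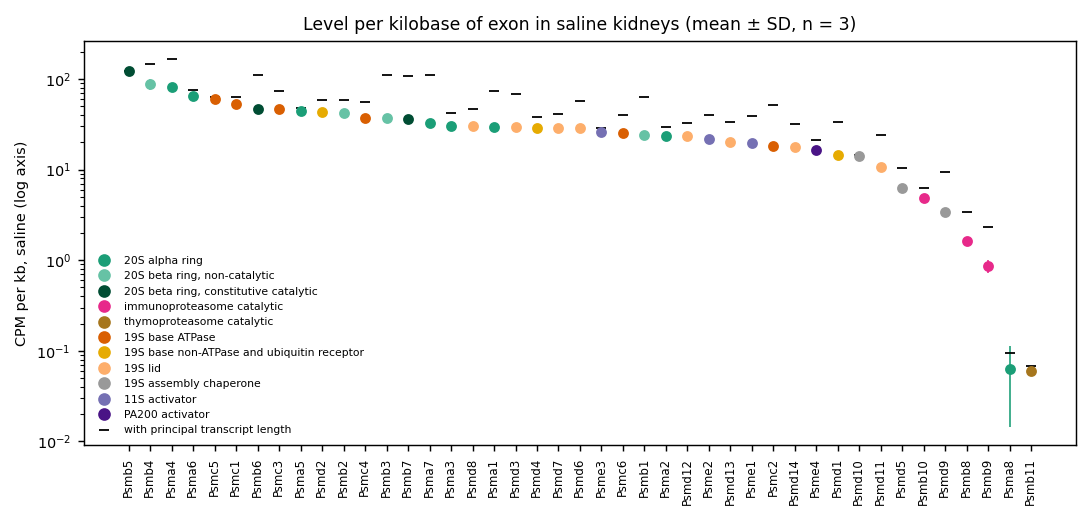
Level of each of the 43 members in saline kidneys as CPM per kb of exon on a log axis, with points for the mean and bars for the SD of 3 libraries, coloured by role, and dashes for the value with the principal transcript's length. The constitutive core and 19S genes lie between 10.6 and 122 CPM per kb, apart from Psma8, while Psmb10, Psmb8 and Psmb9 lie at 4.87, 1.65 and 0.857.

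With cisplatin, proteasome transcripts rose broadly and by modest amounts. Of 42 members tested, 31 rose and 1 fell, where 29.7% of all tested genes rose and 30.4% fell. The median log2 fold change of the 42 members was 0.37 against -0.01 over all genes tested, and the values ran from -0.23 for Psmd9 to 0.68 for Psmd11. None exceeded a log2 change of 1, and 12 exceeded 0.5. All members together took 0.309% to 0.328% of the counts of each saline library and 0.480% to 0.512% of each cisplatin library. On the TMM scale their sum was 3426 ± 199 CPM (SD, n = 3) in saline and 4421 ± 98.9 in the cisplatin group. With scaling by library totals alone the median over all genes shifted from -0.01 to 0.26 and the split of members became 39 risen and 0 fallen, while the members' median lay 0.38 above that of all genes under either scaling. The labels do not say outright that the 3 libraries of a group come from separate animals, and the p-values measure only the spread between them.

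Within the core, the catalytic genes did not move alike. Psmb5 encodes the chymotrypsin-like subunit, and its level was 100, 108 and 122 CPM in the saline libraries and 166, 189 and 170 CPM in the cisplatin libraries. The lowest cisplatin library exceeded the highest saline library, and the log2 fold change was 0.67 (SE 0.07, adjusted p = 2.4e-06). Psmb6, the caspase-like subunit, was at 81.6, 87.5 and 94.7 CPM in saline and at 119, 128 and 117 CPM with cisplatin. Its groups did not overlap either, with a log2 change of 0.46 (SE 0.06, adjusted p = 1.5e-05). Psmb7, the trypsin-like subunit, was at 115, 129 and 127 CPM in saline and at 118, 129 and 131 CPM with cisplatin. Its groups overlapped and it did not pass the test, at a log2 value of 0.03 (SE 0.06, adjusted p = 0.72). Psmb7 shares 11.8% of its exon bases with the antisense gene Nek6, and Psmb5 shares 12.1% with Mir686. Reads there cannot be assigned with certainty.

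Of the 7 alpha ring genes tested, 6 rose, and the log2 values of the 7 ran from 0.14 to 0.47 with a median of 0.23. Psma7 led them, at 95, 102 and 104 CPM in saline and 140, 144 and 133 CPM with cisplatin. Its log2 fold change was 0.47 (SE 0.05, adjusted p = 4.2e-06). The member of the ring that did not pass was Psma4, at 0.14 (SE 0.06, adjusted p = 0.071), and the call of Psma5 at 0.19 was lost without saline replicate 1 or cisplatin replicate 2. Of the non-catalytic beta genes 3 of 4 rose. The largest change was in Psmb3, from 77.2, 85.2 and 90.8 CPM in saline to 123, 126 and 117 CPM with cisplatin, a log2 change of 0.53 (SE 0.06, adjusted p = 5e-06). Psmb1, at 0.08, did not pass. Psmb11 stood at 0.266, 0.288 and 0.316 CPM in saline and 0.426, 0.386 and 0.325 CPM with cisplatin, and it did not pass (adjusted p = 0.3).

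**Figure D2:**
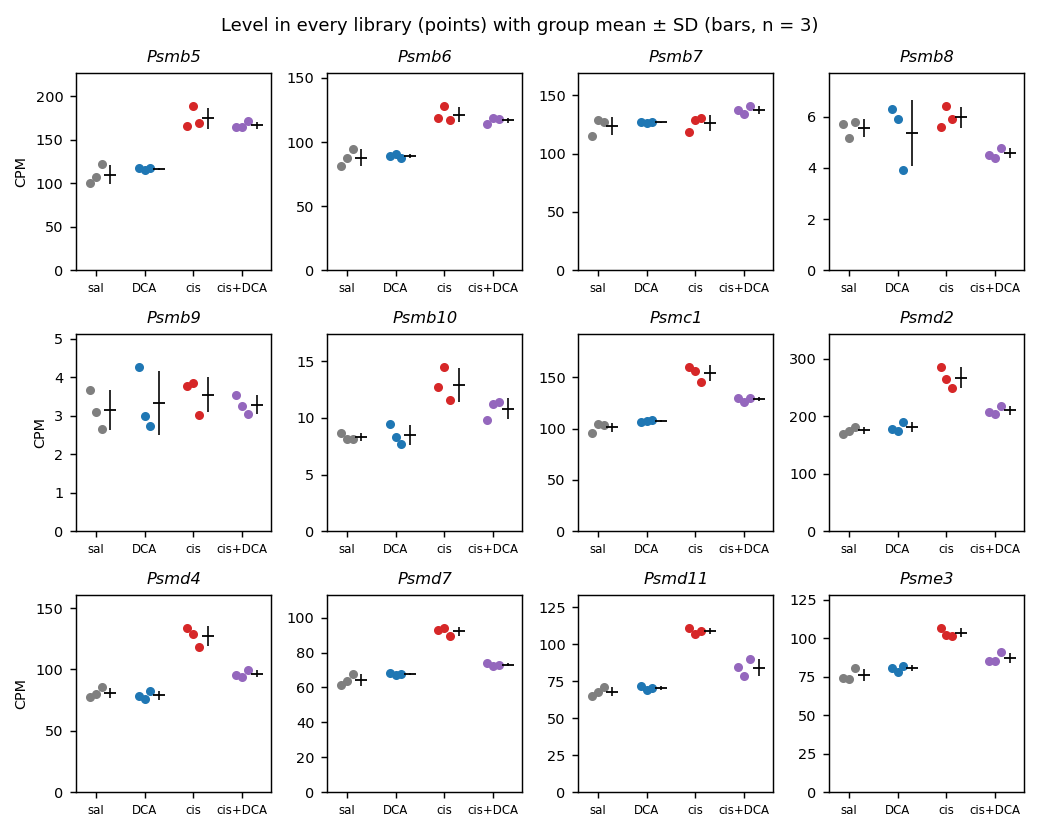
CPM of 12 members in each library (points) with the group mean and SD (bars, n = 3) for saline (sal), dichloroacetate (DCA), cisplatin (cis) and the combination (cis+DCA). Psmb5 and Psmb6 overlap between the combination and cisplatin alone, Psmd2, Psmd4, Psmd7 and Psmd11 lie between the saline and cisplatin levels, and Psmb7 and Psmb9 overlap between saline and cisplatin.

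The 19S particle had the larger changes, with 14 of 17 genes rising and a median log2 fold change of 0.50, against 11 of 14 and a median of 0.28 for the 20S core. The difference between the particles was not tested. All 6 ATPase genes of the base rose, by log2 values of 0.43 to 0.60. Psmc1 was the highest of them, at 96.2, 104 and 104 CPM in saline and 160, 157 and 145 CPM with cisplatin (log2 fold change 0.60, SE 0.05, adjusted p = 3.8e-07). Psmc6 was at 87.2, 90.1 and 90.5 CPM in saline and 127, 125 and 123 CPM with cisplatin (log2 fold change 0.48, SE 0.04, adjusted p = 7e-07). In both genes every cisplatin library lay above every saline library.

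In the rest of the base, the ubiquitin receptor gene Psmd4 was at 77.4, 79.7 and 85.7 CPM in saline and 134, 129 and 118 CPM with cisplatin. Its log2 fold change was 0.65 (SE 0.06, adjusted p = 8.8e-07). The scaffold gene Psmd2 was at 169, 175 and 181 CPM in saline and 286, 265 and 250 CPM with cisplatin, with a log2 change of 0.61 (SE 0.06, adjusted p = 1.2e-06). Its partner scaffold Psmd1 did not pass, at 0.08 (SE 0.05, adjusted p = 0.17). For all 3 genes every cisplatin library lay above every saline library, though the range of Psmd1 over both groups was only 103 to 114 CPM.

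In the lid, which carries the deubiquitinase Psmd14, 6 of 8 genes rose. Psmd11, a lid scaffold that contacts both the base and the core, had the largest change of all members, from 64.8, 67.8 and 70.8 CPM in saline to 111, 107 and 109 CPM with cisplatin. This was a 1.61-fold increase (log2 fold change 0.68, SE 0.06, adjusted p = 2.6e-07). Psmd7, the partner of Psmd14, was at 61.1, 63.8 and 67.8 CPM in saline and 92.8, 94.2 and 89.5 CPM with cisplatin, a log2 change of 0.52 (SE 0.05, adjusted p = 9.5e-07). Psmd12 was at 58.9, 62.9 and 63.7 CPM in saline and 78.3, 79.6 and 77.9 CPM with cisplatin, a log2 change of 0.35 (SE 0.05, adjusted p = 2.1e-05). Psmd14 itself rose by a log2 value of 0.30 (SE 0.07, adjusted p = 0.0022). The lid genes that did not pass were Psmd3 at 0.11 and Psmd6, whose level was 76.5 to 81.7 CPM in saline and 79.4 to 79.7 CPM with cisplatin.

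The 3 chaperones of the 19S base went different ways. Psmd10 (gankyrin) was at 19, 22.3 and 21.2 CPM in saline and 31.2, 33.6 and 32.5 CPM with cisplatin, a log2 change of 0.64 (SE 0.06, adjusted p = 1.4e-06). Psmd5 rose by 0.36 (SE 0.05, adjusted p = 3.2e-05). Psmd9 fell by 0.23 (SE 0.05, adjusted p = 0.0021), and its levels of 20.5, 21.2 and 21.0 CPM with cisplatin lay below the 23.2, 24.8 and 25.6 CPM of saline. Its direction depends on the scaling, since with library totals alone the log2 value was 0.05. Of the exon bases of Psmd9, 25.5% are shared with the antisense gene Gm26745, and the counting is not stated to use strand, so reads there cannot be told apart.

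Among the activators, Psme2, a subunit of the interferon-inducible 11S ring, rose from 37.5, 38.2 and 39.1 CPM in saline to 46.5, 52.5 and 46.1 CPM with cisplatin. The log2 fold change was 0.34 (SE 0.06, adjusted p = 0.00017). Its ring partner Psme1 was at 42.1, 42.6 and 45.2 CPM in saline and 45.1, 49.8 and 44.9 CPM with cisplatin, and it did not pass (log2 value 0.11, SE 0.06, adjusted p = 0.13). Psme3, which forms the nuclear 11S ring, was at 74.4, 73.6 and 80.9 CPM in saline and 107, 102 and 101 CPM with cisplatin, a log2 change of 0.44 (SE 0.05, adjusted p = 9.9e-06). Psme4 was at 132, 139 and 143 CPM in saline and 158, 152 and 174 CPM with cisplatin, a log2 change of 0.22 (SE 0.06, adjusted p = 0.0055). Psme1 was thus the only activator gene whose saline and cisplatin libraries overlapped.

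**Figure D3:**
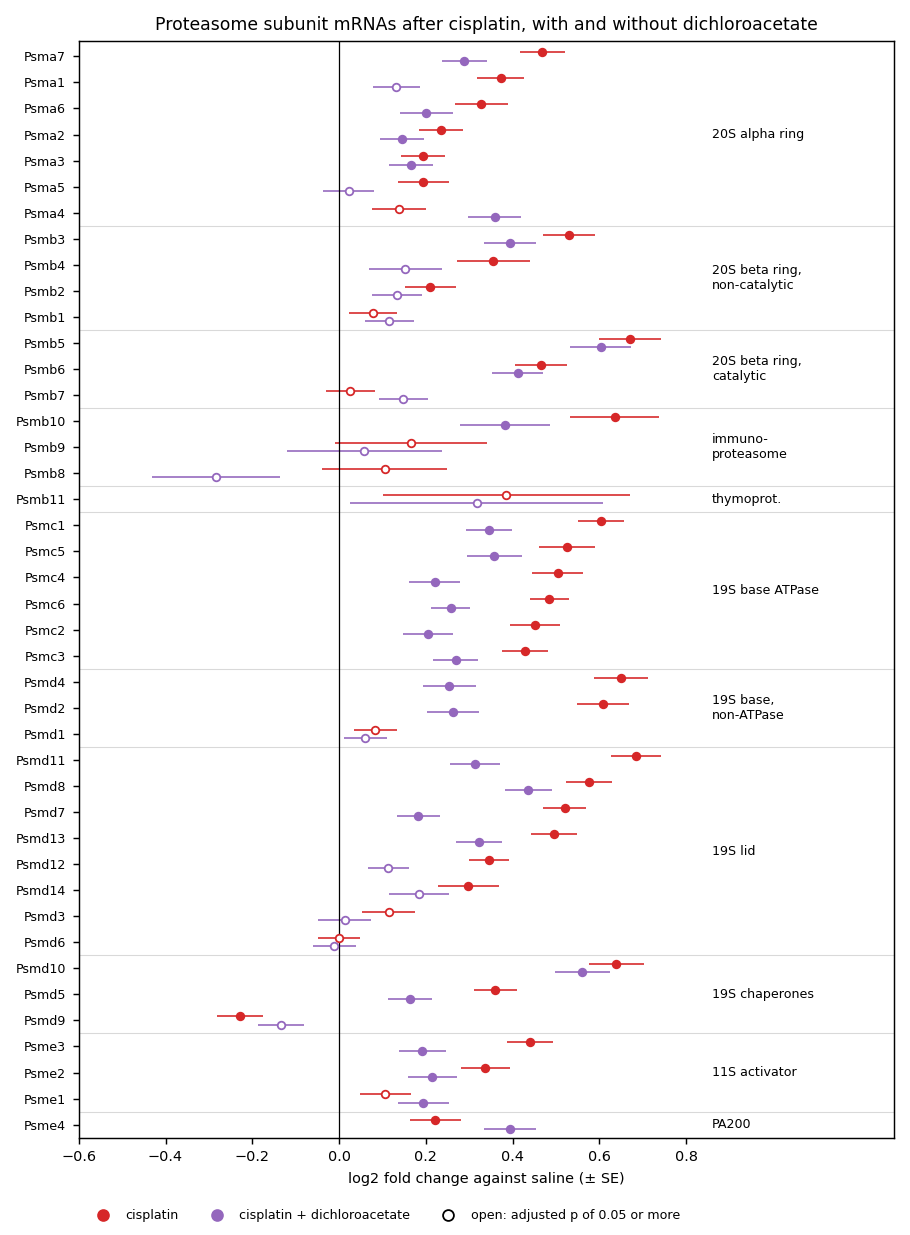
Log2 fold change against saline with its SE for the 42 tested members, by role, for cisplatin (red) and the combination (purple), where open points have an adjusted p of 0.05 or more. Cisplatin values run from -0.23 for Psmd9 to 0.68 for Psmd11, and in the 19S particle all 17 purple points lie left of the red ones.

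The immunoproteasome catalytic genes were treated separately because they replace the constitutive subunits one for one. Psmb10, which replaces Psmb7, was at 8.68, 8.13 and 8.11 CPM in saline and 12.7, 14.5 and 11.6 CPM with cisplatin. It was the only one of the 3 to rise, by a log2 value of 0.64 (SE 0.10, adjusted p = 0.00012). Psmb8, which replaces Psmb5, was at 5.74, 5.16 and 5.81 CPM in saline and 5.59, 6.42 and 5.92 CPM with cisplatin (log2 value 0.10, SE 0.14, adjusted p = 0.55). Psmb9, which replaces Psmb6, was at 3.68, 3.09 and 2.65 CPM in saline and 3.78, 3.83 and 3.02 CPM with cisplatin (log2 value 0.17, SE 0.18, adjusted p = 0.43). The groups overlapped for both Psmb8 and Psmb9. These 2 genes had 92 to 360 counts per library, and their SE was larger than that of any constitutive core gene, which limits what could be called. Psmb9 lies at chr17:34181987-34187764 on the minus strand and shares 5.79% of its exon bases with Tap1, and Psmb8 at chr17:34197721-34201454 shares 14.7% with the antisense gene Gm20496.

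Within a library, the ratio of an immunoproteasome gene to its constitutive partner does not depend on scaling between libraries. Counts per kb of Psmb8 were 1.27% to 1.52% of those of Psmb5 in the saline libraries and 0.899%, 0.904% and 0.928% in the cisplatin libraries. With DCA the ratio was 1.42%, 1.36% and 0.884%, and with the combination 0.731%, 0.712% and 0.742%. Both cisplatin-treated groups thus lay below all saline libraries, while 1 DCA library lay in the range of the treated groups. The ratio of Psmb9 to Psmb6 was 1.43% to 2.30% in saline, 1.59% to 2.45% with DCA, 1.32% to 1.63% with cisplatin and 1.32% to 1.58% with the combination, and these ranges overlapped. The ratio of Psmb10 to Psmb7 went the other way, from 15.1%, 12.7% and 12.8% in saline to 21.6%, 22.6% and 17.7% with cisplatin. With the combination it was 14.3%, 16.8% and 16.3%, which overlapped saline.

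**Figure D4:**
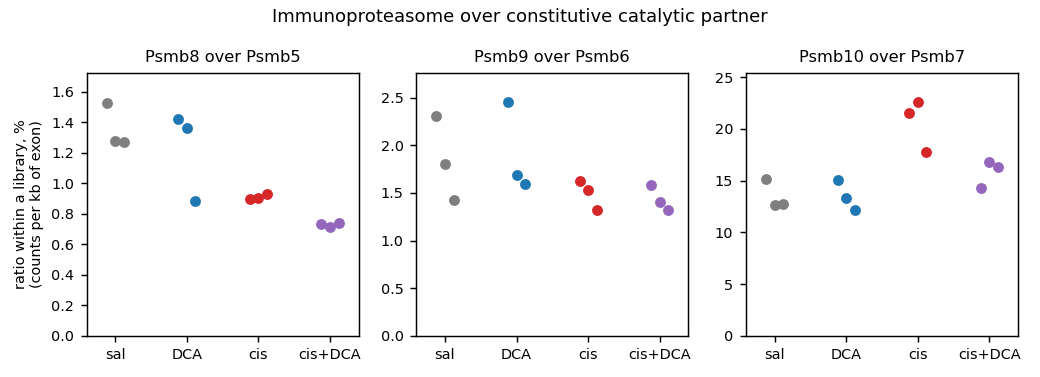
Ratio, in percent of counts per kb of exon, of each immunoproteasome catalytic gene to the constitutive gene it replaces, with 1 point per library in the saline (sal), dichloroacetate (DCA), cisplatin (cis) and combination (cis+DCA) groups. Psmb8 over Psmb5 is lower in all 6 cisplatin-treated libraries than in saline, Psmb9 over Psmb6 overlaps, and Psmb10 over Psmb7 is 17.7% to 22.6% with cisplatin against 12.7% to 15.1% in saline.

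With DCA alone, no member rose or fell in edgeR, where 0.309% of all tested genes were called in either direction. At an unadjusted p below 0.05 there were 3 members, while 11.91% of all genes passed that level, and DESeq2 also called 0 members. The value farthest from zero was that of Psmd10, at 23.1, 23.7 and 24.9 CPM with DCA against 19 to 22.3 CPM in saline (log2 value 0.20, SE 0.06, adjusted p = 0.23). The members' CPM sum was 3503 ± 38.0 with DCA and 3426 ± 199 with saline.

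With the combination, many subunit transcripts were above saline. Against saline 27 members rose and 0 fell, beside 20.6% and 19.6% of all genes. Against DCA alone, 25 rose and 0 fell, beside 21.5% and 19.2%. Of the 31 members that rose with cisplatin, 25 also rose with the combination against saline, and these comparisons share the saline libraries. The same share among all genes that rose with cisplatin is not given here, so this overlap cannot be called particular to the members. The 2 others that rose in the combination were Psma4 and Psme1. Psma4 was at 246, 251 and 245 CPM with the combination against 177 to 210 CPM in saline (log2 fold change 0.36, SE 0.06, adjusted p = 0.00049). Psme1 was at 48.9, 50.7 and 48.9 CPM against 42.1 to 45.2 CPM (log2 fold change 0.19, SE 0.06, adjusted p = 0.018), and its call was lost without saline replicate 1 or 2 or combination replicate 2. Psmb8 was at 4.52, 4.40 and 4.78 CPM with the combination, below every saline and every cisplatin library. Psmd9, at 22.6, 22.2 and 22.2 CPM, lay below every saline library and above every cisplatin library. Neither gene passed the test in these comparisons.

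The direct comparison of the combination with cisplatin found 16 members lower and 2 higher, where 13.5% of all genes were lower and 18.1% higher. Of the 16, 11 belong to the 19S particle, 3 to the alpha ring (Psma1, Psma5 and Psma7), and the others are Psmd5 and Psme3. With scaling by library totals alone the split was 34 lower and 0 higher, but the median over all genes also moved, from 0.01 to -0.11. The members' median minus that of all genes was -0.15 under either scaling. The 2 higher genes were Psma4 (log2 fold change 0.22, SE 0.06, adjusted p = 0.015) and Psme4 (0.17, SE 0.06, adjusted p = 0.041). Psme4 was at 179, 178 and 188 CPM with the combination against 158, 152 and 174 CPM with cisplatin. Both calls were lost without cisplatin replicate 1 or combination replicate 3, and that of Psme4 also under DESeq2.

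The core and the regulatory particle differed in how many members were called in this comparison, though the difference between them was not tested. The 19S sum was 1557 ± 73.1 CPM in saline, 2118 ± 68.8 with cisplatin and 1820 ± 33.8 with the combination (SD, n = 3). The 20S sum was 1465 ± 111, 1809 ± 48.0 and 1745 ± 26.5 CPM in the same groups. Psmb5 was at 164, 164 and 171 CPM with the combination, overlapping the cisplatin libraries, and the combination differed from cisplatin by a log2 value of -0.07 (SE 0.07, adjusted p = 0.52). Psmb6, at 114, 119 and 118 CPM, differed by -0.05 (SE 0.06, adjusted p = 0.55). Psmb7, at 137, 134 and 141 CPM, lay above every cisplatin library but did not pass the test, at a log2 value of 0.12.

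The interaction asks whether cisplatin changed a gene by a different amount on the DCA background, as the combination over DCA minus cisplatin over saline on the log2 scale. It was negative, a smaller response with DCA, for 12 members and positive for 0, where 7.15% of all genes were called negative and 11.4% positive. The median over the 42 members was -0.19 against 0.03 over all genes. Of the 42 values 35 were below zero, beside 9504 of 20370 over all genes. Of the 12, 10 belong to the 19S particle and none to the 20S core, of which 14 were tested, with Psmd10 and Psme3 as the others. The counts for 19S and 20S were 12 and 2 under DESeq2 and 14 and 5 with library totals alone. Library totals also moved the median interaction over all genes from 0.03 to -0.06. The members' median minus that of all genes was -0.21 under either scaling.

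The largest interaction was that of Psmd11 at -0.43 (SE 0.08, adjusted p = 0.0029). Psmd11 was at 72.0, 68.9 and 70.5 CPM with DCA and 84.5, 78.5 and 89.9 CPM with the combination, below all cisplatin libraries. The adjusted p was smallest for Psmd7, whose interaction was -0.41 (SE 0.07, adjusted p = 0.0015). Psmd7 was at 68.5, 67.1 and 67.5 CPM with DCA and 73.8, 72.3 and 72.6 CPM with the combination. The combination libraries thus lay between the DCA and the cisplatin libraries for both genes, with no overlap.

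Psmd2 was at 178, 174 and 190 CPM with DCA and 208, 204 and 219 CPM with the combination, and its interaction was -0.39 (SE 0.08, adjusted p = 0.0062). Psmd4 was at 78.1, 75.7 and 82.6 CPM with DCA and 95.8, 94.2 and 99.6 CPM with the combination, with an interaction of -0.36 (SE 0.09, adjusted p = 0.012). Both the scaffold and the ubiquitin receptor were therefore intermediate, with no overlap between the combination and either neighbouring group. Psmc1 was at 107, 108 and 108 CPM with DCA and 130, 126 and 130 CPM with the combination (interaction -0.34, SE 0.07, adjusted p = 0.0063). Psmc6 was at 92.5, 89.6 and 91.9 CPM with DCA and 106, 106 and 109 CPM with the combination (interaction -0.26, SE 0.06, adjusted p = 0.012). The other called ATPase genes were Psmc4 at -0.32 and Psmc2 at -0.28.

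Psmd12 was at 63.9, 62.9 and 64.3 CPM with DCA and 65.8, 67.2 and 67.6 CPM with the combination, with an interaction of -0.28 (SE 0.07, adjusted p = 0.01). Against saline the combination's Psmd12 did not pass (0.11, SE 0.05, adjusted p = 0.065), and against DCA alone it was 0.07 (SE 0.05, adjusted p = 0.25). Psme3 was at 80.7, 78.4 and 82.3 CPM with DCA and 85.2, 85.2 and 91.1 CPM with the combination (interaction -0.33, SE 0.08, adjusted p = 0.0099). The interactions of Psmd13, at -0.28, and Psmd10, at -0.27 (adjusted p = 0.049), also passed. That of Psmd13 was lost without DCA replicate 1, and those of Psmd10 and Psmc2 were lost without any 1 of several libraries, DCA replicate 1 among them. With the combination Psmd10 was at 29.2, 31.2 and 31.8 CPM, which overlapped its cisplatin libraries. Its DCA libraries, at 23.1, 23.7 and 24.9 CPM, all lay above those of saline. Psmb5 and Psmb8 did not pass, with interactions of -0.16 (SE 0.10) and -0.35 (SE 0.21).

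**Figure D5:**
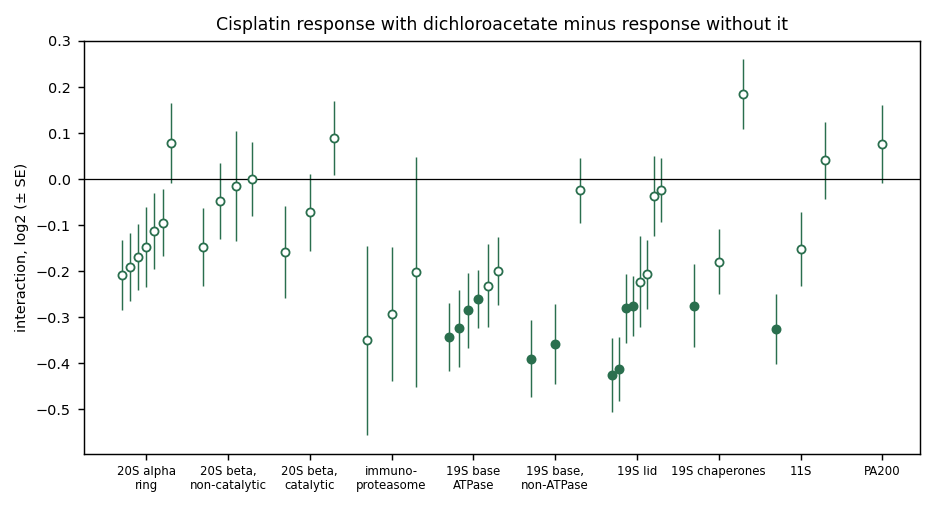
Interaction with its SE on the log2 scale for 41 tested members by role, with Psmb11 left out for its wide error, where filled points have an adjusted p below 0.05. Filled points lie between -0.43 and -0.26 and are found in the 19S base and lid, the chaperones and the 11S activators, while all constitutive core points are open.

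Genes that work with the proteasome were read beside the subunits. The shares of all tested genes that rose and fell with cisplatin, 29.7% and 30.4%, are the background for the counts of these lists. Of 6 genes for 20S assembly and inhibition 2 rose with cisplatin, a share near that background, Psmg4 by a log2 value of 0.67 (SE 0.12, adjusted p = 0.00022) and Psmg3 by 0.37 (SE 0.09, adjusted p = 0.0022). The maturation factor Pomp (0.14, adjusted p = 0.083) and the inhibitor Psmf1 (0.13, adjusted p = 0.2) did not pass. Of 16 genes for other proteasome-bound proteins 10 rose and 0 fell, with a median of 0.31. The ubiquitin receptor Adrm1 was at 88.3 ± 7.2 CPM in saline, 125 ± 6.6 with cisplatin and 96.0 ± 4.1 with the combination (SD, n = 3). The proteasome-bound deubiquitinase Usp14 was at 36.0 ± 1.1, 54.9 ± 2.1 and 43.7 ± 1.1 CPM in the same groups. Zfand2a, a stress-inducible partner of the 19S particle, went from 12.4 ± 0.48 to 27.1 ± 4.2 CPM with cisplatin and was at 13.7 ± 1.2 CPM with the combination. Its interaction of -1.03 (SE 0.15, adjusted p = 0.00049) was larger in size than that of any subunit.

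Upstream of the proteasome, 3 of 5 ubiquitin and E1 genes rose with cisplatin and 0 fell. The polyubiquitin gene Ubb rose by a log2 value of 0.16 (SE 0.05, adjusted p = 0.013), and Uba6, which activates ubiquitin, rose by 0.57 (SE 0.07, adjusted p = 5.3e-06). Of 8 genes of the p97 segregase, which extracts ubiquitinated proteins, and its cofactors, 6 rose and 1 fell. Ubxn4 rose by 0.64 (SE 0.06, adjusted p = 7.2e-07), Nsfl1c rose by 0.47 (SE 0.06, adjusted p = 7.9e-06), and Faf1 fell by 0.84 (SE 0.07, adjusted p = 3.3e-07).

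Of 14 genes of the NRF1 and NRF2 axis 6 rose and 4 fell, beside 29.7% and 30.4% of all genes. Nfe2l1 rose from 133 ± 5.7 to 169 ± 2.5 CPM with cisplatin (log2 fold change 0.34, SE 0.05, adjusted p = 7.2e-05). Nfe2l2 rose from 71.3 ± 2.4 to 151 ± 14 CPM (1.09, SE 0.07, adjusted p = 1.7e-08), and Maff, a small Maf partner of both, from 1.55 ± 0.28 to 21.4 ± 6.1 CPM (3.77, SE 0.23, adjusted p = 1.1e-08). Btrc, an E3 ligase subunit, fell by 1.16 (SE 0.08, adjusted p = 2.7e-08), and Ddi1, a protease gene known from the testis, fell from 0.432 ± 0.083 to 0.0809 ± 0.049 CPM. Of these, Maff and Btrc had called interactions, at -1.64 and 0.64.

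Of 24 genes of class I antigen presentation and interferon response, the usual company of the immunoproteasome, 12 rose with cisplatin and 6 fell, beside 29.7% and 30.4% of all genes. Tap1, the peptide transporter gene that neighbours Psmb9, rose from 6.28 ± 0.73 to 23.5 ± 1.3 CPM (log2 fold change 1.90, SE 0.14, adjusted p = 1e-07). Irf1 rose by 0.99 (SE 0.15, adjusted p = 6.3e-05) and Cxcl10 by 3.83 (SE 0.39, adjusted p = 1.6e-06), while Cxcl9 fell by 2.16 (SE 0.64, adjusted p = 0.01). Nlrc5 did not pass, at -0.10 (SE 0.24, adjusted p = 0.75). Tap1, Irf1 and Cxcl10 thus rose, while Psmb8 and Psmb9 did not pass the test.

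Immune cells express the immunoproteasome, and their markers were read in each group. The sum of 10 leukocyte markers was 44.5 to 59.8 CPM in saline, 44.1 to 62.1 with DCA, 44.8 to 52.5 with cisplatin and 42.8 to 53.0 with the combination, and none of the 10 was at 0 throughout a group. The 10 markers of T, NK and B cells summed to 1.97 to 3.72 CPM in every library. Macrophage markers, of which 8 were measured, summed to 99.1 to 116 CPM in saline and 81.3 to 118 with DCA. With cisplatin they summed to 102 to 124 CPM and with the combination to 79.6 to 85.3. Neutrophil markers, with 5 of 6 in the table, summed to 16.8 to 25.0 CPM in saline and 25.5 to 30.3 with cisplatin, with no overlap, and 2 of the 4 tested rose. The leukocyte sums overlapped between all groups. The macrophage sums of the combination lay below those of saline and cisplatin but overlapped those of DCA. The sums hide single markers that moved differently. With cisplatin 2 of the 8 macrophage markers rose and 3 fell, beside 29.7% and 30.4% of all genes. In the combination against saline 1 of the 10 leukocyte markers rose and 4 fell, beside 20.6% and 19.6%. Their part in the level of Psmb10 was not tested. Of the distal nephron markers 9 of 10 fell, from a sum of 4290 to 4850 CPM in saline to 2103 to 2569 with cisplatin, endothelial markers went from 234 to 313 CPM to 194 to 203, and 5 of 6 erythroid markers were tested and fell. Of the thymus and testis markers, Foxn1, Ddx4 and Prm1 were below 1 CPM in every library, while Sycp3 was at 107 ± 11.6 CPM in saline.

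The cisplatin response over all genes depended on genomic span, with a median log2 fold change of -0.63 over the 2082 genes longer than 100 kb, so the members were also read by span. The median span was 11.8 kb for all 43 members, the untested Psma8 included, and 15.3 kb for all genes tested. Between 5 and 20 kb the median log2 fold change with cisplatin was 0.49 for 21 members and 0.08 for 5760 genes, and 16 of those members rose against 37.41% of the genes. Between 20 and 50 kb it was 0.27 for 8 members and -0.01 for 4329 genes. Between 50 and 100 kb it was 0.08 for 5 members and -0.14 for 2184 genes. The members' median was above that of all genes in each span class that held more than 1 member.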

How the data were processed

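Total RNA of mouse kidney was made into the 12 libraries with a TruSeq RNA kit, per the labels' protocols, which do not say that strand was kept. The deposited file used here holds the authors' raw read counts per Ensembl gene, as whole numbers that were not normalized. A second deposited table, of normalized values, was not used. Per the submitters' processing notes, the tools were Trimmomatic, TopHat, Cufflinks, HTSeq, bedtools and DESeq, with genome build mm10. Their versions, order and roles are not given in the sources used here.

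Gene symbols, biotypes, spans and exon lengths were taken from GENCODE M21 (GRCm38, the same assembly as mm10), which matched 27955 of 28991 gene identifiers and left 1036 without a symbol. The counts were fitted with edgeR 4.0.16 in R 4.3.3 (filterByExpr, TMM scaling, glmQLFit and glmQLFTest, 1 mean per group over all 12 libraries, 2-sided). P-values were adjusted by Benjamini and Hochberg over the 20370 genes tested, and the threshold was 0.05. The fit recovered known changes when checked on simulated data, in which few genes changed and all groups otherwise had saline levels. That check did not cover changes in as many genes as cisplatin brought here. DESeq2 1.42.0, other scalings, no count filter, a replicate block, the 6 libraries compared alone, other transcript lengths and the omission of each library in turn were alternatives, and the principal transcript length was added after seeing the data. Same-numbered libraries of different groups had correlations of their deviations from -0.095 to 0.152, so the numbers were not used as pairs. Replicates of a group differed by more than sampling noise.

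Values per saline and cisplatin library are given for the catalytic, immunoproteasome and activator genes and the member of each role with the largest change with cisplatin. For the 8 members with the smallest interaction p-values, values are given per library in all 4 groups. For other members, DCA and combination values are given only in part. Of each companion list the 3 called genes with the largest changes and a fixed set of regulators are named. Further members named by their calls were chosen after their values were seen. The members and all gene lists were chosen with earlier results of these data known. Promoter windows are from RefSeq on GRCm38.p6. Some companion genes are not reported here and are in no count of their lists. A comparison of subunit protein sequences was planned and is not analysed here. Of the members, 8 share over 5% of their exon bases with another gene of the table, and reads there cannot be assigned with certainty.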

Additional observations from a re-analysis of the deposited data

Results flagged for a closer look

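The 12 subunit genes whose cisplatin response differed between the DCA and saline backgrounds, by the interaction test in edgeR with an adjusted p below 0.05, had values of -0.34 (Psmc1), -0.28 (Psmc2), -0.32 (Psmc4), -0.26 (Psmc6), -0.39 (Psmd2), -0.36 (Psmd4), -0.41 (Psmd7), -0.27 (Psmd10), -0.43 (Psmd11), -0.28 (Psmd12), -0.28 (Psmd13) and -0.33 (Psme3) on the log2 scale. All 12 are below zero, a smaller rise over the DCA libraries than over the saline libraries. Only for Psmd10 did the combination libraries overlap those of cisplatin alone.

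Among the 73 companion genes the same test called 21 negative and 3 positive, beside 7.15% and 11.4% of all genes tested. The genes named here are a subset of those called. They include the proteasome-bound proteins Zfand2a (-1.03), Zfand5 (-0.52), Usp14 (-0.39) and Adrm1 (-0.45). They also include Uba6 (-0.38) among the ubiquitin and E1 genes, Ubxn4 (-0.44) and Faf1 (0.62) among the p97 genes, and Maff (-1.64), Btrc (0.64), Irf1 (-0.67) and Cxcl10 (-2.72). The third positive value was that of Ngly1 (0.37), named after its value was seen. Faf1 and Btrc fell with cisplatin and fell less on the DCA background. Irf1 lost its call when single libraries were left out, in 9 of 12 such fits. The summed proximal tubule markers, given above, also differed between the cisplatin and combination groups, and their part in these values was not tested.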

How the results depend on the processing

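The side of the threshold, and the direction of called values, were kept in 5072 of 5334 comparisons of a gene's value with an alternative. Another 136 lost and 121 gained a call. The 5334 include DCA against saline, where no member was called in any fit, so no call could be lost. They also include fits that left out a library of neither group compared. The calls kept in each comparison are given below. A change of sign where neither value was called was counted as kept, so changes of sign among uncalled values are not shown. Every reversal of a value called in either fit came with library totals alone: for Psmd6 (0.28 in cisplatin against saline, 0.17 in the combination against DCA and 0.14 against saline) and Psmd9 (0.048 and 0.147 in the first pair of these). Under that scaling the members fallen with cisplatin became 0, those higher and lower in the combination than with cisplatin 0 and 34, those risen against DCA 39, and negative interactions 22. The median over all genes moved too, to 0.26, -0.11, 0.20 and -0.06 in these comparisons in turn. Members higher in the combination than with cisplatin numbered 1 with DESeq2's size factors or test, without a filter, or with the 6 libraries alone.

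With each library left out in turn, members that rose with cisplatin numbered 30 to 34, and 31 of the 32 calls were kept in all of these fits. In the combination against cisplatin 0 to 2 were higher, with 0 without cisplatin replicate 1 or combination replicate 3, and 12 to 19 lower, with 12 of 18 calls kept throughout. Against DCA 17 to 25 rose and 0 to 1 fell, the 1 without DCA replicate 3, with 15 of 25 calls kept. Against saline 22 to 34 rose and 0 to 1 fell, the 1 without saline replicate 1 or DCA replicate 3, with 20 of 27 kept. Negative interactions numbered 9 to 15, with 9 of 12 kept. A replicate block gave 32 risen with cisplatin and 12 negative interactions, and moved no count by over 1.5 times. Of the 12 libraries, 6 correlated best with their own number. Correlations between libraries of different numbers ran from -0.215 to 0.187, so these values do not settle whether the numbers mark pairs.

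By longest and principal transcript, Psmb8 over Psmb5 in saline was 2.40% and 2.82%, Psmb9 over Psmb6 1.21% by the longest, Psmb10 over Psmb7 5.96% by the principal, and the median levels per kb were 62.8 and 91.4 for 20S and 47.0 for 19S by the principal. With only bases before the start, 1 member (2.78%, against 8.13% of genes) held the interferon-gamma-activated site and 3 (8.33% against 8.18%) the interferon regulatory factor core. Depth limits Psma8, Psmb11, Psmb8 and Psmb9.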
